A study of Rattus norvegicus with 22 samples.

Results

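Prostaglandins are lipid signals that cells make from arachidonic acid of their membranes. A cyclooxygenase turns the acid into the unstable intermediate PGH2, a terminal synthase turns that into a particular prostaglandin, and the product leaves the cell and acts on receptors of the G protein-coupled kind on the same or neighbouring cells. In heart tissue prostaglandin E2 and prostacyclin are known for their action on vessels, fibroblasts and growing muscle cells, and the mRNA of the inducible cyclooxygenase is known to be stabilised through p38, a stress-activated kinase of the MAPK family. The 10 genes described here were chosen by name. They comprise 5 synthases, namely the cyclooxygenases Ptgs1 (COX-1) and Ptgs2 (COX-2) and the terminal synthases Ptges, Ptgis and Ptgds, and 5 receptors, namely Ptger2, Ptger3, Ptger4, Ptgfr and Ptgir. The array carried 12 probes for them among 30367 probes in all, and all 10 were among the 23479 genes that passed the filter on dim probes.

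The tissues were cylinders cast from ventricular cells and a matrix gel, held at their ends and cultured for 7 days in medium with serum and chicken embryo extract. The cells came from embryonic Sprague Dawley rats at gestational day 14.5. From culture day 5, for 48 h, 4 tissues had both uniaxial cyclic stretch (0.5 Hz, 5% elongation) and 10 µM BIRB796 (called stretch with BIRB796), 4 had BIRB796 alone, 7 had stretch alone and 7 had neither (control). BIRB796 is an inhibitor of p38 MAPK, per the treatment protocol, while the title of the series speaks of tyrosine kinase. The labels name no vehicle for the control, and do not say which tissues came from separate cell preparations, so p-values measure only the spread between these samples, which may be partly technical.

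Each tissue was measured on 1 one-colour array, and the arrays were read in 3 scan sessions. Session 1 held stretch replicates 1 to 3 and control replicates 1 to 3, paired on slides 1 to 3. Stretch replicates 4 to 7 made up session 2 with no other group, and session 3 had all arrays with BIRB796 and control replicates 4 to 7. Stretch with control can therefore be compared within session 1, and the groups with BIRB796 with control within session 3. Stretch with BIRB796 and stretch alone never shared a session, so scan session and group cannot be told apart when they are set side by side. With a session term they are compared through the controls of sessions 1 and 3. Levels are given as a percent of the array's own 75th percentile of signal, and tests were made on log2 values. Stretch replicates 4 and 5 differed by less than the noise between repeated spots and were counted as 1 sample. Stretch replicate 7 was the dimmest array (75th percentile 853, against 1826 to 4807 on the others). All 10 cardiomyocyte markers (among them Tnnt2, Myh6 and Actn2) were above background on every array, and so were the 13 tested macrophage and leukocyte markers on every array of sessions 1 and 3.

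The probe of Ptgs2 and the coding probe of Ptgs1 are shown because most of what follows rests on these genes. Both lie in coding sequence, and the capitals mark the stop codon with which the Ptgs2 probe ends.
Ptgs2, chr13:64432919-64432978 (rn4, plus strand): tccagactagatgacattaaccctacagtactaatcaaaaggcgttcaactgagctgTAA
Ptgs1, chr3:15350683-15350742 (rn4, plus strand): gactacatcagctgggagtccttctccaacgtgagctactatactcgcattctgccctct
A second Ptgs1 probe lies 14432 bases further along chromosome 3 (chr3:15365115-15365174). It had the higher mean signal, the rule by which 1 probe was taken for a gene, and gives the Ptgs1 values below unless the coding probe is named. Ptger3 also had 2 probes, 39465 bases apart on chromosome 2, and the other 8 genes had 1 each.

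The 250 bases before the annotated start of Ptgs2 (chr13:64713813-64714062, GRCr8, plus strand, RefSeq) are shown beside those of Ptgs1 (chr3:39981169-39981418, GRCr8, plus strand, RefSeq), since the pair is the usual example of an inducible and a constitutive promoter. The capitals mark matches to 6 motifs searched on both strands: the E-box CACGTG, the binding letters of C/EBP factors TTNNGCAAT, the TATA box TATAAA and a TATA-like run TTTAAA, the AP-1 letters TGANTCA and the cyclic AMP response element TGACGTCA.
Ptgs2: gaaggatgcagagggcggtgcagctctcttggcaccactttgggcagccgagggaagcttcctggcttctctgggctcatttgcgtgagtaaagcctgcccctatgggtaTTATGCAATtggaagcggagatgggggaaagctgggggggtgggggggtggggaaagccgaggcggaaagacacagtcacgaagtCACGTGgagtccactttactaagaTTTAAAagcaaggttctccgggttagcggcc
Ptgs1: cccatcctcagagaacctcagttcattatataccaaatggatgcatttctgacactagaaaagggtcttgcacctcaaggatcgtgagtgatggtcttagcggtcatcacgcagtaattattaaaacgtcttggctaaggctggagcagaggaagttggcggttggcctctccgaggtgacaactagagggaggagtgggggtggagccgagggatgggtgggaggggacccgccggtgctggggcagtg
The Ptgs2 window held the C/EBP letters 140 bases, the E-box letters 55 bases and the TATA-like run 31 bases before the start. Among 33469 promoter windows of the same length, 2.04% held the C/EBP letters, 5.59% the E-box, 12.9% TATAAA, 12.3% the TATA-like run, 6.34% the AP-1 and 1.59% the CRE letters. The Ptgs1 window held none of the 6. Of the 10 genes 9 had a window, and the only other match was the C/EBP letters before Ptgfr. These are matches of letters, not sites shown to be bound.

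With limma, the scan session as a term and adjustment over all genes, 0 of the 10 genes passed the test (adjusted p under 0.05) in any of 6 comparisons. Few genes of any kind did: 0.0% in stretch against control, in BIRB796 against control, in stretch with BIRB796 against BIRB796, in stretch with BIRB796 against stretch and in the interaction, and 0.0767% (18 genes) in stretch with BIRB796 against control. At an unadjusted p under 0.05 stood 711, 1459, 440, 532, 324 and 2191 genes in that order, and among the 10 genes 0, 4 (Ptgs1, Ptger2, Ptgds and Ptgir), 0, 0, 0 and 2 (Ptgs1 and Ptger2). The median difference of the 10 genes was -0.05 in stretch against control (0.05 over all genes), 0.07 in BIRB796 against control (-0.03), -0.21 in stretch with BIRB796 against BIRB796 (0.05) and -0.08 in stretch with BIRB796 against control (0.04). It was -0.39 in stretch with BIRB796 against stretch (-0.01), which shared no session, and -0.03 in the interaction (0.01). Fitted on session 3 alone, the arrays of which spread less, stretch with BIRB796 against control called 7.6% of all genes, among them Ptgs1 and Ptger2, and BIRB796 against control called 1.8% and stretch with BIRB796 against BIRB796 0.0767%, with none of the 10.

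**Figure D1:**
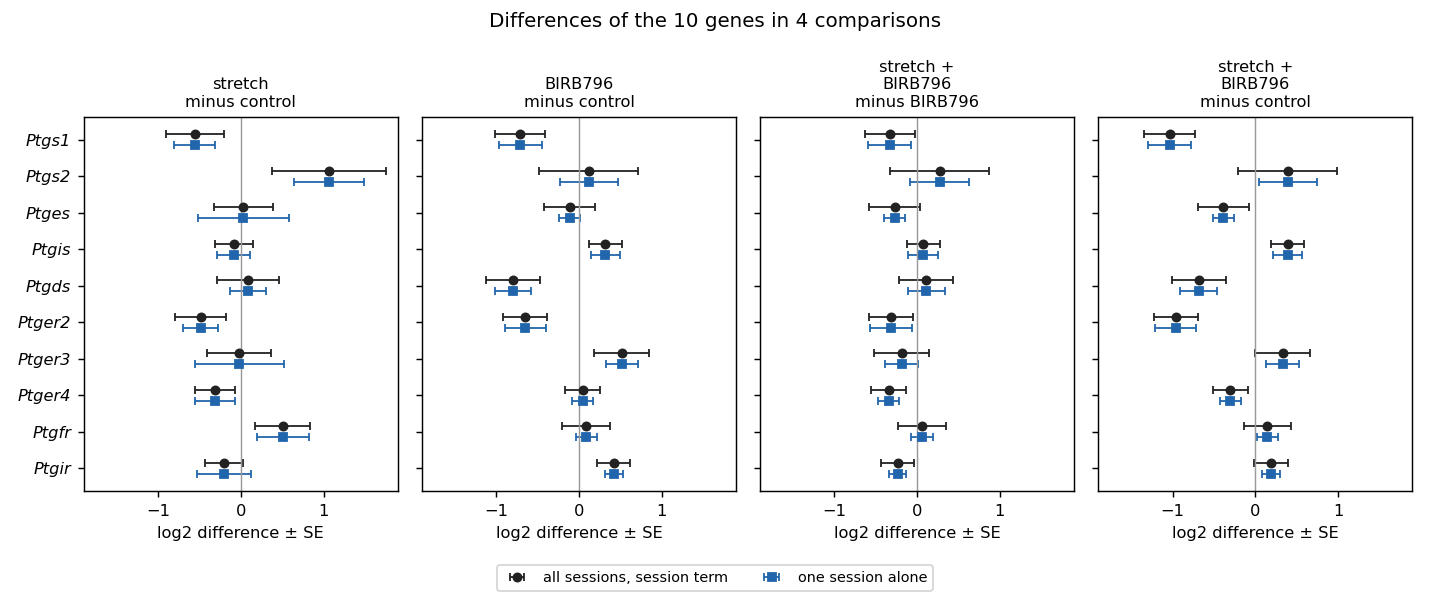
Log2 differences (horizontal axis) with their standard errors for the 10 genes (rows) in 4 comparisons (panels), from the fit over all sessions with a session term (black circles) and from the arrays of a single session (blue squares, session 1 for the first panel and session 3 for the others). Ptgs2 lies furthest to the right in stretch against control, at 1.06, and Ptgs1 and Ptger2 furthest to the left in stretch with BIRB796 against control, at -1.04 and -0.96.

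Ptgs2, the inducible cyclooxygenase, was higher in each stretched tissue of session 1 than in the control of its slide. In session 1 it had 4.65, 4.64 and 2.20% of the 75th percentile in stretch replicates 1 to 3, against 2.05, 2.34 and 1.08% in control replicates 1 to 3. The probe was above background on every array, but its signal was low. Control replicate 3, the lowest of these, was at -6.53 on the log2 scale. The dimmest probe above background on its array was at -7.08. The groups overlapped, since stretch replicate 3 lay under control replicate 2, but on slides 1, 2 and 3 the stretch array was above its control by 1.18, 0.98 and 1.02 on the log2 scale. The mean difference was 1.06 ± 0.69 (SE), or 2.09-fold, with a 95% interval from -0.39 to 2.52 and an adjusted p of 1 (limma, session term). With slide as a block in session 1 its standard error was 0.18 and its unadjusted p 0.00122, with an adjusted p of 0.853 over all genes. In session 2, without a control, stretch replicates 4 to 7 had 2.33, 2.27, 5.50 and 35.8%. Without the dim replicate 7, an array that enters the spread but not the difference in this fit, it was 1.06 ± 0.46 (adjusted p = 0.520).

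A fit that sets session 2 stretch against session 3 controls gave larger values for Ptgs2. Without a session term the difference between stretch and control was 2.26 ± 0.53 (limma, adjusted p = 0.0464, 1.09% of all genes called). Over sessions 2 and 3 alone, an alternative chosen after seeing the data, it was 3.29 ± 0.69 (adjusted p = 0.00549), but there 25.3% of all genes were called. In control tissue itself Ptgs2 was 1.15 higher on the log2 scale in session 1 than in session 3 (geometric means 1.73% and 0.783%). The part that scan session has in the larger values was not tested. On the scale with normexp background correction and quantile normalization, the difference was 0.35 ± 0.41.

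With BIRB796 present, Ptgs2 stayed near the control level on 7 of 8 arrays. In session 3 it had 2.48, 0.763, 0.811 and 0.730% in stretch with BIRB796, 0.783, 0.888, 0.686 and 1.102% in BIRB796 alone, and 0.809, 0.634, 0.734 and 0.998% in control. Replicate 1 of stretch with BIRB796 stood above all the others, and on its slide it was higher than the BIRB796 array by 1.67 and than the control array by 1.62 on the log2 scale. The differences were 0.27 ± 0.60 for stretch with BIRB796 against BIRB796, 0.39 ± 0.60 against control, and 0.12 ± 0.60 for BIRB796 against control (adjusted p from 0.969 to 1). Without that replicate, stretch with BIRB796 was at -0.15 ± 0.61 against BIRB796 and at -0.03 ± 0.61 against control. Whether the effect of stretch on Ptgs2 differed with the inhibitor was tested as an interaction, which gave -0.79 ± 0.91 with an interval from -2.71 to 1.14 (adjusted p = 1) an interval that includes both no difference and a large one.

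**Figure D2:**
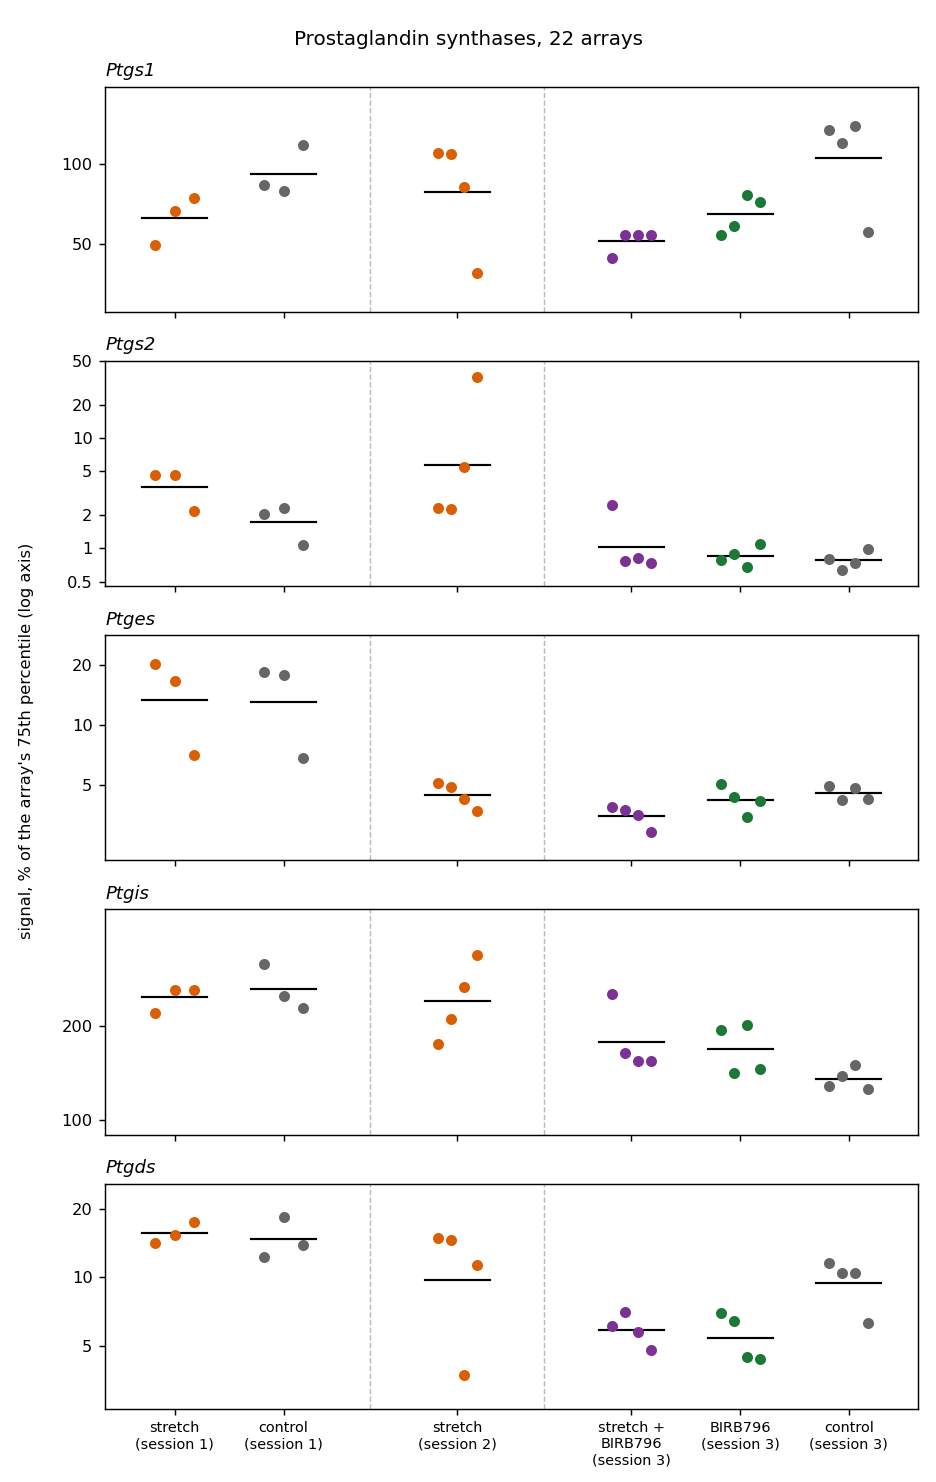
Signal of the 5 synthases on each of the 22 arrays, as a percent of the array's 75th percentile on a log axis. Points are arrays, black lines geometric means of a group in a session, and dashed lines part the sessions. Ptgs2 reached 35.8% in stretch replicate 7 and 2.48% in replicate 1 of stretch with BIRB796. Ptges stood lower on every array of sessions 2 and 3 than on any array of session 1.

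Plaur, the urokinase receptor, was the gene whose values over the 18 arrays of sessions 1 and 3 were most like those of Ptgs2 (r = 0.90 after centring each session, of 12533 genes compared), ahead of Sohlh1 (0.87) and Flt4 (0.85). These arrays share their sessions and slides, and such a ranking picks the highest of many. Plaur had 40.9, 32.1 and 20.4% in stretch replicates 1 to 3, against 19.95, 18.3 and 13.8% in control replicates 1 to 3, so that stretch lay wholly above control, by a narrow gap, as did 4.51% of all genes. It reached 269.6% in stretch replicate 7 and 28.1% in replicate 1 of stretch with BIRB796, the arrays on which Ptgs2 was high as well. Areg, a ligand of the epidermal growth factor receptor often induced with Ptgs2, had 74.8, 21.6 and 44.6% in stretch, against 9.0, 10.9 and 6.45% in control of session 1. Its difference was 2.28 ± 0.69 (limma, unadjusted p = 0.004, adjusted p = 1). Of the 14 tested genes often induced with Ptgs2, 2 had an unadjusted p under 0.05 (limma) in stretch against control, beside 711 of all 23479 genes. The other was Tnf, which went the opposite way at -1.08 ± 0.45 (limma, unadjusted p = 0.0266).

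Ptgs1, the constitutive cyclooxygenase, was lower in stretched than in control tissue in session 1, and lower with BIRB796 than in most control tissue in session 3. In session 1 it had 49.6, 66.8 and 74.4% of the 75th percentile in stretch replicates 1 to 3, against 83.9, 79.4 and 117.9% in control. All 3 stretch arrays lay below all 3 control arrays, as did those of 4.3% of all genes, and the difference was -0.56 ± 0.35 (limma, adjusted p = 1). The coding probe was at -0.16 ± 0.28, with 6.43, 6.39 and 4.14% in stretch and 6.19, 5.69 and 6.68% in control, so that its groups overlapped.

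In session 3 Ptgs1 had 44.6, 54.2, 54.3 and 54.0% in stretch with BIRB796, 54.3, 58.7, 76.6 and 72.2% in BIRB796 alone, and 134.2, 120.4, 139.3 and 55.8% in control replicates 4 to 7. Control replicate 7 lay at the level of the treated tissue and the other 3 controls above every treated array. Stretch with BIRB796 was below all controls and also below all BIRB796 arrays, though its highest array (54.27%) nearly met the lowest BIRB796 array (54.29%). For comparison, 7.96% of all genes lay wholly below control and 1.81% wholly below BIRB796 in the same sets of arrays. The difference from control was -1.04 ± 0.30 in stretch with BIRB796 (limma, unadjusted p = 0.00313, adjusted p = 0.217), or 0.487-fold, and -0.71 ± 0.30 in BIRB796 alone (adjusted p = 0.705). In session 3 alone the first of these passed at -1.04 ± 0.26 (limma, adjusted p = 0.0395, 7.6% of all genes called). Without control replicate 7 it was -1.35 ± 0.27 (limma, adjusted p = 0.0322, 0.605% of all genes called). The coding probe had 1.84, 1.898, 2.66 and 1.49% in stretch with BIRB796, against 3.96, 3.201, 2.94 and 2.09% in control, with control replicate 7 again among the treated arrays. Its difference was -0.62 ± 0.24 (limma, unadjusted p = 0.0197, adjusted p = 0.398).

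The slides of session 3 did not give Ptgs1 the same difference. On slide 6 stretch with BIRB796 was below control by -1.59 on the log2 scale and BIRB796 was below it by -1.31, whereas on slide 8 the 2 arrays of stretch with BIRB796 differed from control replicate 7 by -0.04. With slide as a random block the difference between stretch with BIRB796 and control was -0.87 ± 0.27 (limma, adjusted p = 0.185). Stretch with BIRB796 against BIRB796 alone gave -0.33 ± 0.30 for Ptgs1 in all, -0.29 on slide 6 and -0.35 on slide 9.

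Ptger2, the EP2 receptor that raises cyclic AMP on binding prostaglandin E2, had nearly the pattern of Ptgs1 (r = 0.91 over the 18 arrays of sessions 1 and 3, 0.89 within session 1 and 0.92 within session 3). Its session 1 values were 3.28, 3.63 and 3.37% in stretch, against 4.78, 3.87 and 5.95% in control, again wholly below as for 4.3% of all genes, at -0.49 ± 0.31 (limma, adjusted p = 1). In session 3 it had 3.67, 2.84, 2.599 and 2.90% in stretch with BIRB796, 3.61, 3.35, 3.60 and 4.31% in BIRB796 alone, and 6.36, 6.55, 8.49 and 3.20% in control. Control replicate 7 was once more the lowest of its group and lay among the treated arrays, so the groups overlapped. Stretch with BIRB796 stood at -0.96 ± 0.27 against control (limma, unadjusted p = 0.00210, adjusted p = 0.197), or 0.513-fold, and BIRB796 alone at -0.65 ± 0.27 (adjusted p = 0.668). In session 3 alone the first of these passed (limma, adjusted p = 0.0442, 7.6% of all genes called). It passed also without control replicate 7, at -1.25 ± 0.23 (limma, adjusted p = 0.0238, 0.605% of all genes called). On slide 6 Ptger2 was at -0.79 and on slide 8 at -0.24 in stretch with BIRB796 against control.

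Genes known from macrophages were among those most like Ptgs1 and Ptger2, and a macrophage marker list was lower in the same comparisons as both. Nearest to Ptgs1 were the lysosomal thiol reductase Ifi30 and Ncf1, a subunit of the phagocyte NADPH oxidase (r = 0.97 each), with Rbks (0.965), and nearest to Ptger2 were the myeloid receptor Pilra (0.96), the transcription factor Batf (0.96) and Ncf1 (0.95). Of the list of 14 macrophage and leukocyte markers 13 passed the filter, and 12 of them were above background throughout session 2. In session 3 their mean log2 signal ran from 1.42 to 1.65 in stretch with BIRB796, from 1.55 to 1.99 in BIRB796 alone and from 1.62 to 2.57 in control, where replicate 7 gave the lowest value and the others 2.42 or more. In session 1 it ran from 0.15 to 1.08 in stretch and from 0.73 to 1.85 in control. There control replicate 3 had the highest value and also the highest Ptgs1, 117.9%. Stretch replicate 3 had the lowest value, 0.15, but the highest Ptgs1 of the session 1 stretch arrays, 74.4%. All 13 were lower in stretch than in control (median -0.68), in BIRB796 than in control (-0.47), in stretch with BIRB796 than in BIRB796 (-0.30) and in stretch with BIRB796 than in control (-0.73), with 0 called in each. In tissue of mixed cells, fewer cells of a type and less RNA per cell cannot be told apart, and the part of macrophage content in the Ptgs1 and Ptger2 values was not tested. Il1b, a cytokine of macrophages on the list of genes often induced with Ptgs2, was at -1.22 ± 0.52 in stretch with BIRB796 against control (unadjusted p = 0.0299).

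**Figure D3:**
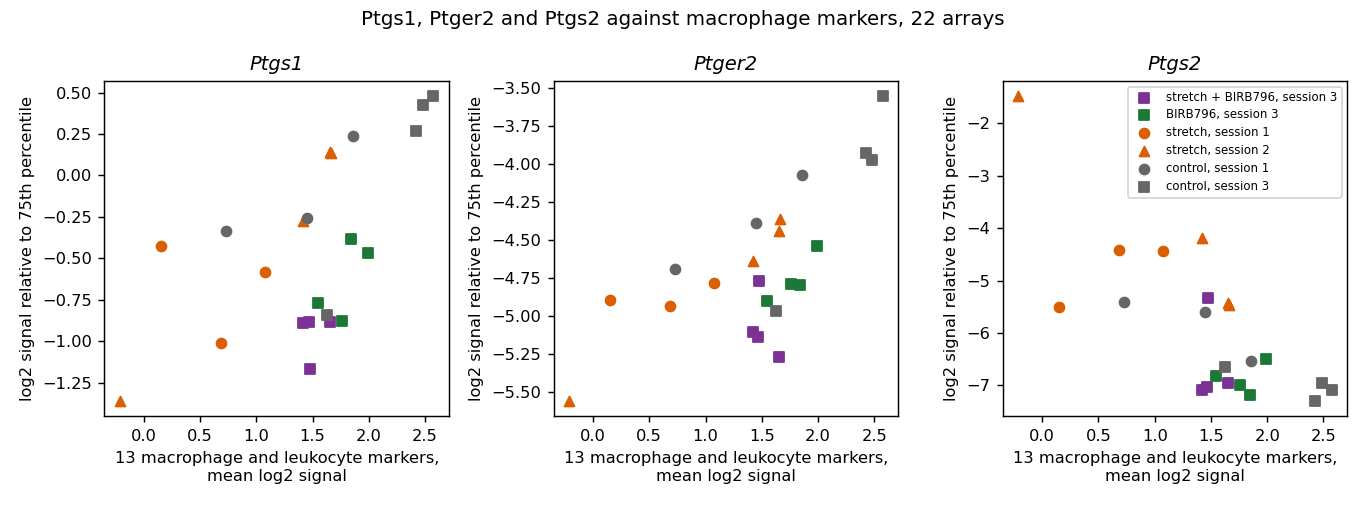
Log2 signal of Ptgs1, Ptger2 and Ptgs2 (vertical axes, relative to the array's 75th percentile) against the mean log2 signal of 13 macrophage and leukocyte markers (horizontal axes) on the 22 arrays, with colours for groups and symbols for sessions. Control replicates 4 to 6, between 2.42 and 2.57 on the horizontal axis, carry the highest Ptgs1 and Ptger2, control replicate 7 at 1.62 sits with the treated tissues, and stretch replicate 7 at -0.21 has the lowest Ptgs1 and the highest Ptgs2.

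The terminal synthases differed from each other. Ptgds, the lipocalin-type prostaglandin D synthase, had 6.10, 7.06, 5.74 and 4.81% in stretch with BIRB796, 6.95, 6.45, 4.47 and 4.36% in BIRB796 alone, and 11.6, 10.4, 10.51 and 6.28% in control of session 3. As with Ptgs1, 3 controls stood above all 8 treated arrays and replicate 7 among them. The difference from control was -0.69 ± 0.33 in stretch with BIRB796 (limma, adjusted p = 0.534) and -0.80 ± 0.33 in BIRB796 alone (adjusted p = 0.665), and in session 3 alone the adjusted p were 0.0848 and 0.0897. On slide 6 stretch with BIRB796 was at -0.92 against control and on slide 8 at 0.02. In session 1 Ptgds had 14.1, 15.4 and 17.6% in stretch, against 12.3, 18.5 and 14.0% in control, which overlapped (0.09 ± 0.38).

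Ptges, the inducible microsomal synthase of prostaglandin E2 that usually acts behind Ptgs2, lacked the difference between stretch and control that Ptgs2 had on each slide of session 1. In session 1 it had 20.3, 16.7 and 7.09% in stretch, against 18.5, 17.9 and 6.80% in control, with slide differences of 0.13, -0.10 and 0.06. Slide 3 was low in both groups, and the difference was 0.03 ± 0.35 (limma, 95% interval from -0.72 to 0.78). In session 3 Ptges had 3.84, 3.72, 3.50 and 2.90% in stretch with BIRB796, 5.04, 4.33, 3.44 and 4.12% in BIRB796, and 4.95, 4.202, 4.81 and 4.23% in control. Stretch with BIRB796 lay wholly below control, as did 7.96% of all genes, at -0.39 ± 0.31 (adjusted p = 0.853, and 0.0912 in session 3 alone). Its r with Ptgs2 was 0.44 over the 18 arrays, 0.69 in session 1 and -0.01 in session 3.

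Ptgis, which makes prostacyclin, differed little between stretch and control in session 1. It had 220.5, 261.7 and 261.6% in stretch, against 317.2, 249.4 and 227.5% in control (-0.08 ± 0.23, adjusted p = 1). In session 3 it had 253.8, 163.8, 153.7 and 153.8% in stretch with BIRB796, 193.8, 141.5, 201.9 and 145.2% in BIRB796, and 127.9, 138.4, 149.9 and 125.3% in control. Stretch with BIRB796 lay wholly above control, as did 8.86% of all genes, at 0.39 ± 0.20 (limma, adjusted p = 0.588), and BIRB796 stood at 0.32 ± 0.20 (adjusted p = 0.962). Replicate 1 of stretch with BIRB796 was far above the rest of its group, and without it the first difference was 0.22 ± 0.19. Smooth muscle and pericyte markers, cells in which prostacyclin synthase is well known, were also higher with BIRB796. All 9 were higher, by a median of 1.22 in stretch with BIRB796 and 1.19 in BIRB796 against control, with 0 called. At an unadjusted p under 0.05 (limma) stood 8 and 7 of them, beside 2191 and 1459 of all 23479 genes. The mean log2 signal of these markers was highest in replicate 1 of each group (1.72 and 1.46). In session 3 it ran from 0.62 upward in treated tissue and from -0.47 to 0.26 in control. BIRB796 replicate 3 had the lowest of the treated values, 0.62, but the highest Ptgis of its group, 201.9%. In session 1 stretch replicate 1 had the highest marker mean (1.33) and the lowest Ptgis (220.5%). The part of these cells in the Ptgis values was not tested.

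**Figure D4:**
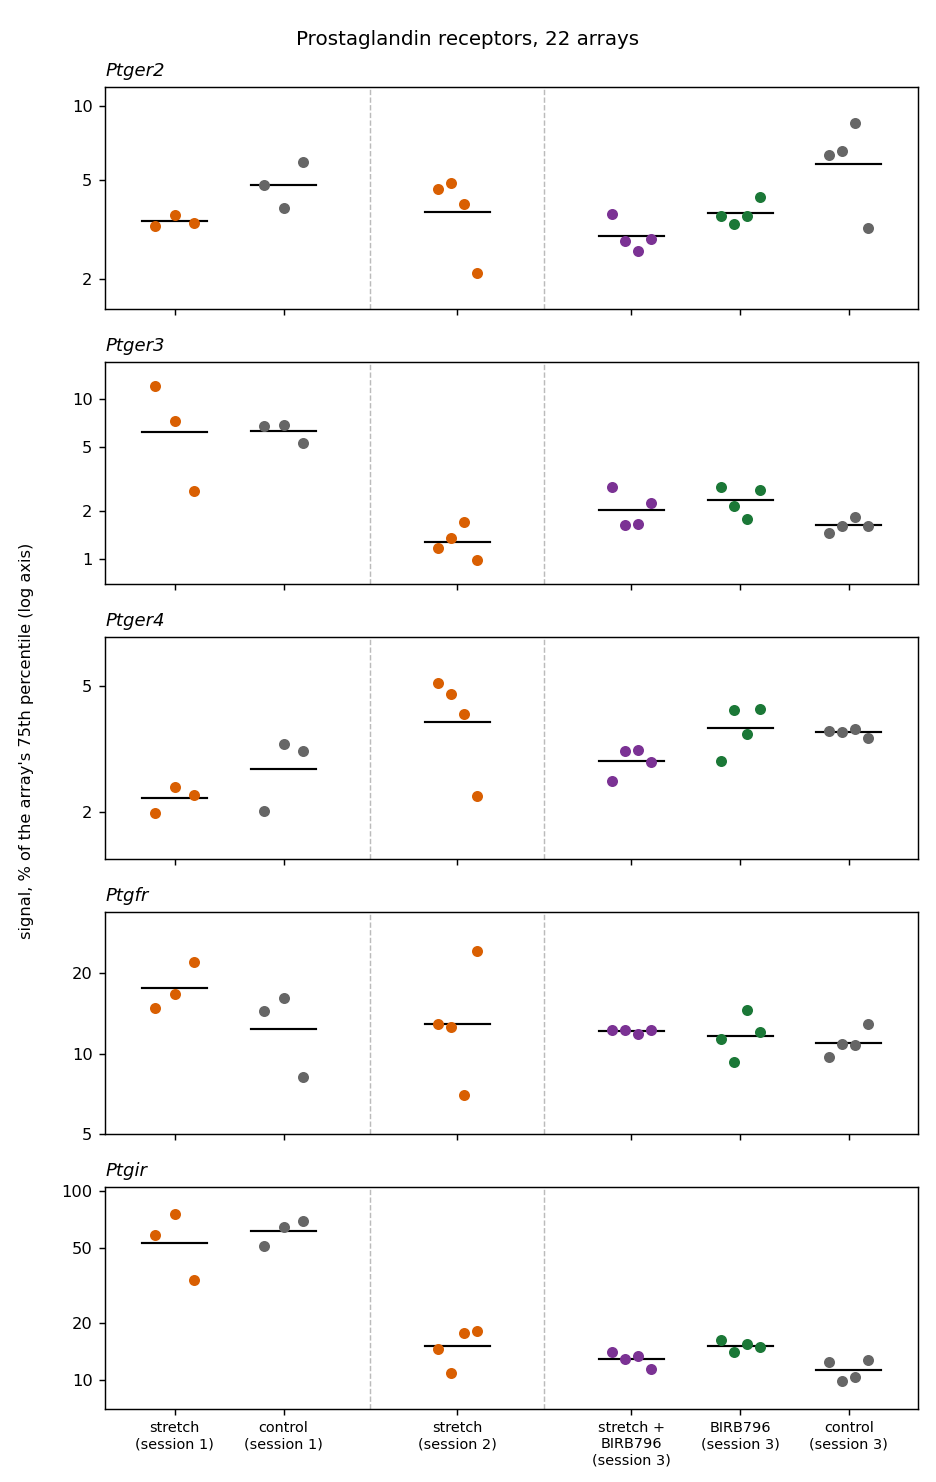
Signal of the 5 receptors on each of the 22 arrays, as a percent of the array's 75th percentile on a log axis, drawn as for the synthases. Ptgir and Ptger3 were higher in session 1 than in sessions 2 and 3 in both groups, and in session 3 all 4 BIRB796 arrays lay above all 4 controls for Ptgir.

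Among the other receptors of prostaglandin E2, Ptger4 (EP4) raises cyclic AMP as Ptger2 does, and Ptger3 (EP3) mostly lowers it. Ptger4 had 2.51, 3.103, 3.13 and 2.88% in stretch with BIRB796, 2.90, 4.22, 3.53 and 4.23% in BIRB796, and 3.62, 3.57, 3.65 and 3.43% in control of session 3. Stretch with BIRB796 lay wholly below the tightly grouped controls, as did 7.96% of all genes, at -0.30 ± 0.21 (limma, adjusted p = 0.805), and at -0.34 ± 0.21 against BIRB796 (adjusted p = 1). On the arrays of session 1 it had 1.98, 2.38 and 2.26% in stretch, against 2.01, 3.27 and 3.12% in control (-0.31 ± 0.24, adjusted p = 1). The stretch arrays were below their control on all 3 slides, by -0.02, -0.46 and -0.47.

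The probes of Ptger3 were both not well above background on stretch replicate 7. Its main probe had 2.81, 1.64, 1.67 and 2.25% in stretch with BIRB796, 2.84, 2.14, 1.78 and 2.71% in BIRB796, and 1.46, 1.60, 1.84 and 1.61% in control, for differences from control of 0.33 ± 0.33 and 0.52 ± 0.33 (limma, adjusted p = 0.920 and 0.982). Without replicate 1 of stretch with BIRB796 the first of these Ptger3 differences was 0.17 ± 0.36. The other probe had 1.98, 1.34, 1.47 and 1.71% in stretch with BIRB796, against 1.00, 1.14, 0.856 and 0.987% in control, wholly above as for 8.86% of all genes, at 0.70 ± 0.24 (unadjusted p = 0.00997, adjusted p = 0.320 over 26884 probes). In session 1 the main probe ran from 2.66 to 12.1% in stretch, against 5.31 to 6.84% in control. Stretch was above control on slide 1 by 0.85, near it on slide 2 at 0.09 and below it on slide 3 by -0.99, so the probe gave no common direction.

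Ptgir, the prostacyclin receptor, had 14.0, 12.9, 13.4 and 11.4% in stretch with BIRB796, 16.3, 14.0, 15.5 and 14.9% in BIRB796 alone, and 12.5, 9.86, 10.4 and 12.7% in control of session 3. All BIRB796 arrays lay above all controls, as did those of 4.87% of all genes. The difference was 0.42 ± 0.20 (limma, unadjusted p = 0.0491, adjusted p = 0.798), and 0.42 ± 0.10 in session 3 alone (adjusted p = 0.0670). With stretch added it was 0.19 ± 0.20 against control and -0.23 ± 0.20 against BIRB796. In session 1 Ptgir had 58.6, 75.03 and 33.8% in stretch, against 51.4, 64.1 and 69.2% in control, where slide 3 alone, at -1.03, set the mean of -0.21 ± 0.23.

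Ptgfr, the receptor of prostaglandin F2-alpha and a known trigger of growth in heart muscle cells, overlapped between the groups with BIRB796 and control. It had 12.3, 12.2, 11.8 and 12.2% in stretch with BIRB796, 11.4, 9.30, 14.5 and 12.01% in BIRB796, and 9.70, 10.8, 10.74 and 12.9% in control, with differences from control of 0.15 ± 0.29 and 0.09 ± 0.29 (95% intervals from -0.46 to 0.75 and from -0.52 to 0.69). In session 1 it had 14.9, 16.7 and 22.04% in stretch, against 14.4, 16.1 and 8.16% in control, and the mean of 0.51 ± 0.33 (adjusted p = 1) came from slide 3 at 1.43, with 0.04 and 0.05 on slides 1 and 2. The genes most like it over 18 arrays were those of striated muscle, Trim72 (r = 0.90), Trim54 (0.89) and the myosin-binding protein gene Mybpc3 (0.88).

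Genes near the remaining members had r from 0.80 to 0.94 over the same 18 arrays. They were Cyp2d4 and C19h16orf46 for Ptges, Pum3, Lrrc59 and Acsl5 for Ptgis, and Duoxa1, Aldh1l1 and Qrich2 for Ptgds. For the receptors they were Ctnnd2, Npr2 and Tinagl1 for Ptger3, Stra6l, Ctdspl and Atp13a4 for Ptger4, and Atg7, Dlg3 and Amph for Ptgir. Among the 10 genes themselves, Ptgs1 and Ptgs2 ran against each other (r = -0.58, with -0.93 over the 6 arrays of session 1 and -0.47 over the 12 of session 3), and Ptgds went with Ptgs1 in session 3 (0.71) but not in session 1 (-0.11).

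Several of the 10 genes differed more between control tissues of different sessions than between treatments. Control of session 1 stood above control of session 3 by 2.43 on the log2 scale for Ptgir (geometric means 61.1 and 11.3%), by 1.94 for Ptger3, by 1.53 for Ptges, by 1.15 for Ptgs2, by 0.96 for Ptgis and by 0.64 for Ptgds. It differed by 0.17 for Ptgfr and by -0.20, -0.28 and -0.38 for Ptgs1, Ptger2 and Ptger4. Over all genes the median was 0.43, and 38.4% of them differed by more than 1 log2 unit, so 4 of the 10 genes is near that share. The sessions used different scanner models or software versions, and whether the tissues differed as well cannot be told apart from that. Stretch with BIRB796 against stretch alone shared no session, and with the session term it was taken through the controls. It is stretch with BIRB796 minus control in session 3, less stretch minus control in session 1. This takes the gap between sessions to be the same in each group, which was not tested. The differences of this comparison, of which the largest in size was -0.77 ± 0.50 for Ptgds, had adjusted p of 1.

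Other genes of prostanoid signalling passed no test either. Of 18 further synthases, receptors, transporters and degrading enzymes of the pathway, 0 were called in any comparison (none of the 6 comparisons having more than 2 at an unadjusted p under 0.05). Hpgds, the haematopoietic prostaglandin D synthase, had 16.7, 27.7 and 26.8% in stretch, against 43.0, 33.0 and 96.9% in control of session 1, wholly below as for 4.3% of all genes, with a difference of -1.16 ± 0.54 (limma, unadjusted p = 0.0473). In session 3 it had 13.6, 24.9, 28.2 and 25.1% in stretch with BIRB796, against 49.8, 49.5, 56.0 and 33.5% in control, at -1.07 ± 0.47 (adjusted p = 0.482). Hpgd, which breaks prostaglandins down, had 2.45, 3.12, 2.97 and 2.83% in stretch with BIRB796, against 5.80, 5.61, 5.73 and 4.71% in control, at -0.94 ± 0.41 (adjusted p = 0.484). Tbxa2r, the thromboxane receptor, was at 0.55 ± 0.23 in BIRB796 against control (adjusted p = 0.689).

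Of 14 genes of arachidonate release, 0 were called. In stretch with BIRB796 against control 6 had an unadjusted p under 0.05 (limma), as had 2191 of all 23479 genes. In that comparison 10 of 14 were negative, with a median of -0.14. The phospholipase Pla2g15 was at -0.57 ± 0.17 (adjusted p = 0.234) and Pla2g7 at -0.95 ± 0.33 (0.321) there, and Anxa1, whose product holds phospholipase A2 in check, was at 0.68 ± 0.28 in stretch against control (unadjusted p = 0.0267). Of 10 lipoxygenase and leukotriene genes 0 were called. In stretch with BIRB796 against control 3 were positive and 7 negative (median -0.25). Alox5, the 5-lipoxygenase of leukocytes, had the smallest p there, at -1.97 ± 0.50 (limma, adjusted p = 0.142). Alox5 had 0.566, 1.81, 1.26 and 1.29% in stretch with BIRB796, against 4.47, 4.73, 6.02 and 3.12% in control, wholly below as for 7.96% of all genes. Ltc4s, next by p, went the opposite way at 0.64 ± 0.33 (limma, unadjusted p = 0.0665).

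Among 17 regulators of Ptgs2 mRNA, a list of p38 kinases, their substrates, RNA-binding proteins and transcription factors, 0 were called. In BIRB796 against control 5 had an unadjusted p under 0.05 (limma), as had 1459 of all 23479 genes. Of the 17, 13 were negative in BIRB796 against control (median -0.19). Cebpb, a C/EBP family member that binds the Ptgs2 promoter, was at -0.53 ± 0.17 in that comparison (limma, adjusted p = 0.423). In stretch with BIRB796 against BIRB796 it was at 0.40 ± 0.17 (limma, unadjusted p = 0.0281). Mapk12, the gene of p38 gamma, was at -1.01 ± 0.28 in stretch with BIRB796 against control (adjusted p = 0.199). Of 10 genes induced by cyclic AMP, the second messenger of Ptger2, Ptger4 and Ptgir, 0 were called. In BIRB796 against control 6 were positive and 4 negative, with a median of 0.02 (-0.03 over all genes). In stretch with BIRB796 against control 8 were positive and 2 negative, with a median of 0.29 (0.04 over all genes). Nr4a1 was at 1.23 ± 0.44 in BIRB796 (unadjusted p = 0.0127) and Nr4a3 at 1.14 ± 0.36 in stretch with BIRB796 (0.0058) against control. Nr4a1 had 71.1, 105.3, 118.8 and 169.2% in BIRB796, against 32.5, 45.6, 35.0 and 95.7% in control, where replicate 7 again lay among the treated arrays. Of 14 genes often induced with Ptgs2, 0 were called and 8 were positive in stretch against control (median 0.07).

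Which of the 10 genes passed depended on how sessions and array quality entered the fit. For Ptgs2 in stretch against control, 1 of 10 genes passed also with a term for array set in place of session, where 7.78% of all genes did. In stretch with BIRB796 against stretch, 1 (Ptgs2) passed over sessions 2 and 3 alone, where 16.1% of all genes did. With array weights and a mean-variance trend, 5 genes (Ptgs1, Ptger2, Ptgds, Ptger3 and Ptgir) passed in BIRB796 against control and 4 (Ptgs1, Ptger2, Ptgds and Ptgir) in stretch with BIRB796 against control, beside 19.5% and 29.7% of all genes, so the counts stand in a setting that calls many.

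**Figure D5:**
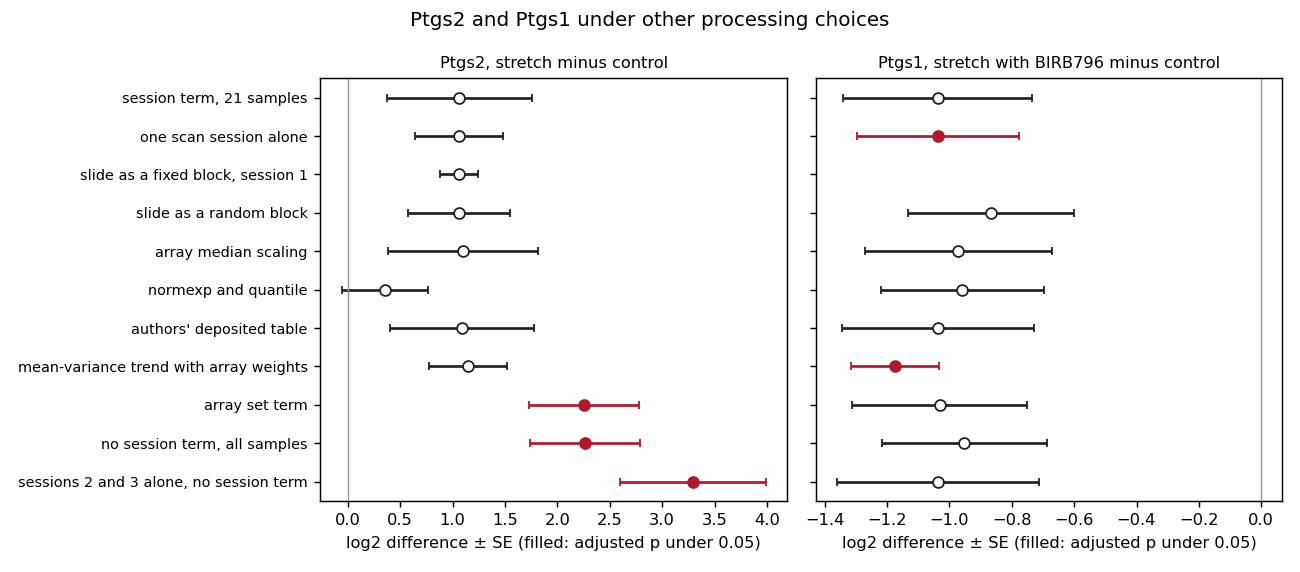
Log2 difference with its standard error (horizontal axes) of Ptgs2 in stretch against control and of Ptgs1 in stretch with BIRB796 against control, under 11 and 10 processing choices (rows). Filled red points passed at an adjusted p under 0.05 and open points did not. Ptgs2 lies between 0.35 and 1.15 where session is kept apart and at 2.25 to 3.29 where it is not, and Ptgs1 lies between -1.18 and -0.87 throughout.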

How the data were processed

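Each of 22 tissues gave 1 Cy3-labelled RNA sample on an Agilent rat array. Per the file headers, the deposited scanner files hold spot intensity after background subtraction and detrending by Feature Extraction (versions 10.7.1.1, 10.7.3.1 and 11.0.1.1), not normalized between arrays, with probes placed on rn4. The authors' deposited table holds log2 values whose normalization and baseline are not given in the sources used here. Each of its columns matched its own array best (r of 0.99965 or more), with medians from -0.114 to 0.403, and it served as an alternative.

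Control spots and outlier flags were left out (293 probe values), spots of a probe were averaged, and log2 intensity was taken relative to the array's 75th percentile. Of 30367 probes, 26884 were well above background on at least 4 arrays, and the probe with the highest mean stood for each of 23479 genes. Names came from the files, which RefSeq updated for 17998 probes through an accession, for 2359 through a symbol and for 615 through a synonym, while 9395 names stayed as in the files. limma 3.58.1 in R 4.3.3 fitted the group and the scan session over 21 samples (15 residual degrees of freedom), with Benjamini-Hochberg adjustment over all genes and a threshold of 0.05. The fit was tested on simulated data. The normexp alternative (offset 50) used median spot signals, since the mean signal is not in every file. The number of arrays limits the precision of every value.

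The genes named are the 10 in every comparison, from each pathway list those called and at most the 2 with the smallest p in a comparison, and the 3 genes most like each of the 10, of which 1 is not reported here. Members, lists and tests were chosen with earlier results of these data known. Same-numbered stretch and control arrays of session 1 shared a slide, and were taken as pairs in the slide differences and in an alternative with slide as a block. Their deviations from the group means correlated at r = 0.505, 0.148 and 0.569. Stretch replicate 2 correlated more with control replicate 1 (0.3) than with its own pair, so the correlation set the pair apart on slides 1 and 3 only. The fit with the session term has no term for the pairs. Alternatives were the session term, slide as a block, scaling, background correction, filter, probe choice, array weights and each replicate left out. statmod 1.5.0 served the random block, and Python 3.11.15, pandas 2.3.3 and matplotlib 3.10.9 the tables and figures.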

Additional observations from a re-analysis of the deposited data

Results flagged for a closer look

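In 50 groups of 4 to 7 samples, 8 held a highest or lowest sample that stood apart. Its gap to the nearest neighbour, as a share of the group's range, was above Dixon's 95% critical value. The groups share samples, and control was taken both whole and in session 3 alone. Groups of 6 and 7 also pool scan sessions. The 8 can therefore not be set against the 1 in 20 that chance gives in independent groups. Replicate 1 of stretch with BIRB796 stood apart for Ptgs1 (lowest, share 0.979), Ptgs2 (highest, 0.915) and Ptgis (highest, 0.874). Control replicate 7 was the lowest of the session 3 controls for Ptgs1 (0.841), and stretch replicate 7 was the highest of 6 stretch samples for Ptgs2 (0.672). Stretch replicate 6 was the lowest of 6 for Ptgds (0.718), at 3.70% of the 75th percentile. Control replicate 1 was the lowest of 7 for Ptger4 (0.734). Replicate 3 of stretch with BIRB796 was the lowest of 4 for Ptgfr (0.972), in a group that ran from 11.8 to 12.3%.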

How the results depend on the processing

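Of 2144 differences of the 10 genes recomputed under other settings, 2010 kept their direction and side of the threshold. Of the rest, 18 passed newly, 0 lost a call, 114 turned sign without a call and 2 turned sign with one. In stretch against control, 1 of the 10 genes (Ptgs2) passed with a term for array set in place of session (2.25 ± 0.53, adjusted p = 0.0236, 7.78% of all genes called) and 1 (Ptgs2) without a session term. Over sessions 2 and 3 alone, added after seeing the data, 3 passed, Ptgs2 with Ptgis (0.938 ± 0.226) and Ptgir (0.497 ± 0.158), both of which turned sign. There 1 (Ptgs2, -2.90 ± 0.69) passed in stretch with BIRB796 against stretch, with 16.1% of all genes. The cause was not tested. With a mean-variance trend and array weights, 5 passed in BIRB796 against control (19.5% of all genes) and 4 in stretch with BIRB796 against control (29.7%). The weights ran as low as 0.041 for stretch replicate 7. In stretch with BIRB796 against control, 2 passed in session 3 alone, and leaving out single replicates gave 0 to 2, with 2 (Ptgs1 and Ptger2) without control replicate 7. A fit of the compared groups alone, with the replicate number as a block and no session term, changed several choices at once, and in it 1 passed there (Ptgds, -1.24 ± 0.12), with 5.75% of all genes and a median of -0.35 over all genes. Numbers of the session 3 groups mark no pairing, since same-numbered arrays of stretch with BIRB796 and BIRB796 correlated at 0.529, 0.014, 0.084 and 0.076. Slide as a block in session 1 changed no call. The count over all genes in stretch with BIRB796 against control was 18, with 69 under a random slide block, 0 with control replicates 5 and 6 averaged, 2 with the array set term and 1 without a session term, and 0 to 197 with 1 replicate left out (197 without stretch replicate 7, 142 without control replicate 7, 0.456% of all genes without the mean of stretch replicates 4 and 5, 42 and 31 without stretch replicates 3 and 6, 1, 2 and 6 without replicates 2, 3 and 1 of stretch with BIRB796, 8 and 12 without BIRB796 replicates 2 and 1, 9 without control replicate 1, 0 without control replicate 4, 5 or 6 or replicate 4 of stretch with BIRB796). Without a session term the median of all genes moved to 0.16 in stretch and to -0.27 in BIRB796 against control.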

Other observations

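Markers of other cell types also differed between the groups, with few calls. Of 11 endothelial markers 10 were lower in stretch with BIRB796 than in control (median -0.84), and 1 was called, the junction gene Esam at -1.65 ± 0.26 (limma, adjusted p = 0.0280). Likewise 10 were lower in BIRB796 than in control (median -0.50, 0 called) and 10 in stretch than in control (median -0.44, 0 called). Of 11 epicardial and mesothelial markers 10 were lower in BIRB796 than in control (median -1.49), with 0 called. At an unadjusted p under 0.05 (limma) stood 4 of them, beside 1459 of all 23479 genes. Of 10 cardiomyocyte markers 0 were called or had an unadjusted p under 0.05 in any of the 6 comparisons.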
